A study of Homo sapiens with 48 samples.

Results

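The 8 EGF-family ligands EGF, TGFA, AREG, EREG, BTC, HBEGF, EPGN and NRG1 were examined in HEK293 cells, a human embryonic kidney line, that stably expressed the type 1 angiotensin II receptor (AT1R). They were chosen by name from the 60610 genes of the count table, and 4 of the 8 (HBEGF, EGF, AREG and TGFA) passed the filter on low counts that left 19626 genes for testing. EREG, BTC, EPGN and NRG1 were too low to test. All cells were of 1 clone, kept in medium without serum during stimulation, and the clone was derived under puromycin and losartan, a blocker of AT1R. The cells were left without stimulus (control) or were given 1 nM angiotensin II (AII), 10 µg/L EGF, or AII + EGF, each for 6 h or 24 h, and poly(A) RNA was sequenced.

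The ligands of this family are made as precursors that span the cell membrane, and proteases of the ADAM family cut them so that the EGF-like domain is released and can bind receptors of the ERBB family. EGF, TGFA and AREG (amphiregulin) bind EGFR (ERBB1). HBEGF (heparin-binding EGF-like growth factor), BTC (betacellulin) and EREG (epiregulin) bind EGFR and ERBB4, and NRG1 (neuregulin 1) binds ERBB3 and ERBB4. Release of HBEGF after activation of a G-protein-coupled receptor such as AT1R is the classical route of EGFR transactivation, and transcription of HBEGF and AREG is known to respond to EGFR and ERK signalling. The added EGF was protein, so the EGF counts below are those of the cells' own EGF mRNA.

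Of 48 deposited libraries, 38 were used. Of 1128 pairs of libraries, 4 differed by less than sampling noise (chi-square per degree of freedom 0.397, 0.401, 0.455 and 0.505, against 2.02 for the next closest pair), and in 3 of these pairs the labels name different groups, so all 8 of their libraries were left out. A further 2 libraries went against their labels. Over 1492 genes that separated AII + EGF from AII at 6 h, AII 6 h replicate 6, by its label, lay at 0.875 of the way from the AII mean to the AII + EGF mean, while the other AII libraries lay between -0.046 and 0.031. AII + EGF 6 h replicate 6, by its label, lay at 0.029, while the others of its group lay between 0.967 and 1.042. The genes were called with these other libraries, and both means were taken over them. Their own positions close to the means therefore follow from the method and do not measure how far a further library would stray. HBEGF is 1 of these genes, so the choice to leave these libraries out is not independent of its values, and results are given with all 48 libraries as well. The 38 libraries comprised 4 control, 5 AII, 3 EGF and 4 AII + EGF libraries at 6 h, and 6, 5, 5 and 6 at 24 h. They held 17.8 to 30 M counts each (median 21.7 M), so that 1 count was worth 0.046 CPM in the median library (CPM are counts scaled to a library total of 1 M). Of 7 genes known from HEK293 cells, 6 had a median above 5 CPM (PAX2, a kidney transcription factor, had 1.26 CPM), and of 8 markers of other cell types 7 stayed below 1 CPM in every library. The labels do not say whether the libraries of a group came from separate cultures, so p-values measure only the spread between these libraries.

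The genes of EPGN, EREG, AREG and BTC lie next to each other on chromosome 4. On GRCh38, EPGN spans chr4:74308470-74316789, EREG chr4:74365145-74388749, AREG chr4:74445136-74455005 and BTC chr4:74744759-74794523, a stretch of 486054 bases in which RefSeq lists no other protein-coding gene. EGF is far from them at chr4:109912883-110013766, HBEGF is at chr5:140332843-140346603 and TGFA at chr2:70447284-70553826. Of these neighbours on chromosome 4 only AREG passed the filter.

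The bases before the start sites of HBEGF, AREG and EGF are shown because the transcripts of these 3 ligands are the ones whose values moved past the threshold on the adjusted p. Each sequence holds the 250 bases before the RefSeq start site on GRCh38, read in the direction of the gene, and capitals mark a match to an AP-1 element (TGANTCA, the binding sequence of FOS and JUN) or a cAMP response element (TGACGTCA). HBEGF lies on the minus strand (chr5:140346604-140346853), AREG (chr4:74444886-74445135) and EGF (chr4:109912633-109912882) on the plus strand.
HBEGF: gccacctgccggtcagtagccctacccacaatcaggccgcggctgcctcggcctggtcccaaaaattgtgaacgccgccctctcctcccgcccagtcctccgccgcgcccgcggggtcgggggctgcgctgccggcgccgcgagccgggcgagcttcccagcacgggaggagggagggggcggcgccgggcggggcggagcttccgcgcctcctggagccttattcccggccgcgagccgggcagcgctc
AREG: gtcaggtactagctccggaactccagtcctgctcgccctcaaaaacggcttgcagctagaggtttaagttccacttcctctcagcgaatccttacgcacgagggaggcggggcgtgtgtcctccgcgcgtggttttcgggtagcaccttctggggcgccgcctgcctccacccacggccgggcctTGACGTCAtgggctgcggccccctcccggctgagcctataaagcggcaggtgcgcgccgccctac
EGF: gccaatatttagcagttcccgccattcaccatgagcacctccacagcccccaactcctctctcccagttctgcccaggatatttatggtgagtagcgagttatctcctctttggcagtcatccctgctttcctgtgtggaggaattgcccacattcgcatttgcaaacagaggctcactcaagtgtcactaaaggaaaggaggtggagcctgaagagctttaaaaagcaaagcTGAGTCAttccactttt

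The AREG sequence held TGACGTCA, which started 65 bases before the start site, and TATAAA 29 bases before it. The EGF sequence held TGAGTCA, 17 bases before the start site. In the HBEGF sequence none of the elements searched on both strands (TGANTCA, TGACGTCA, the EGR element GCGNGGGCG, the ETS element CCGGAAG, the CArG box and TATAAA) was found. Among 35116 RefSeq promoter windows of 250 bases before and 50 bases after the start, 7.71% held TGANTCA (4.95% TGAGTCA, which is a form of it), 1.85% TGACGTCA, 9.43% GCGNGGGCG, 10.3% CCGGAAG, 1.29% the CArG box and 11.5% TATAAA. Of the other ligands, EPGN and EREG held TATAAA 29 and 32 bases before their start sites, and a window was at hand for 7 of the 8 ligands (all but NRG1). A match of these letters is a description and not a binding site.

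HBEGF was the most abundant of the 8 ligands in each of the 8 groups. Pooled over the 38 libraries it reached 4.42 CPM (95% exact Poisson interval 4.28 to 4.56), followed by EGF with 1.54, TGFA with 0.56 and AREG with 0.342 CPM. Counts per library ran from 53 to 192 for HBEGF, from 6 to 83 for EGF, from 1 to 27 for TGFA and from 0 to 39 for AREG. These intervals cover counting error only. Since long transcripts collect more fragments, levels of different genes were compared per kilobase of exon, over which HBEGF had 1.48 CPM per kb. AREG (0.208) and EGF (0.202 CPM per kb) came next in this pooled measure, but not alike in each group, since AREG had 0.926 and EGF 0.12 CPM per kb under AII + EGF at 6 h, and 0.256 and 0.417 under AII + EGF at 24 h. TGFA followed with 0.114, and BTC (0.0187), EPGN (0.0129), EREG (0.00268) and NRG1 (0.00259 CPM per kb) lay far below. The length joins all annotated exons of a gene (21372 bases for NRG1) and can exceed that of a single transcript, so close ranks are uncertain. In raw CPM NRG1 (0.0554) was the highest of the ligands that failed the filter. In raw abundance 72.27% of the 43320 genes with a count lay below HBEGF. Only 19626 genes passed the filter, so many of those below were barely detected. The pooled level of HBEGF was itself under the 5 CPM that a call required.

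EREG, BTC, EPGN and NRG1 never exceeded 4 counts in a library. EREG had 13 counts in all 38 libraries together, 0 in 27 of them, and a pooled level of 0.0153 CPM (95% exact Poisson interval 0.00816 to 0.0262). EPGN (epigen) had 36 counts (0.0424 CPM, at most 3 in a library), BTC 42 counts (0.0495 CPM, at most 4) and NRG1 47 counts (0.0554 CPM, 0.0407 to 0.0737, at most 4). EREG and BTC had 0 counts in the 4 control libraries at 6 h, which allows up to 0.0449 CPM in that group. NRG1 had 11 counts in the 4 AII + EGF libraries at 6 h (2 to 4 each, 0.142 CPM, 95% exact Poisson interval 0.0711 to 0.255) and 1 count in the 4 control libraries (0.0122 CPM, 3.08e-04 to 0.0678). These intervals do not overlap, but they cover counting error only and belong to the highest and the lowest of the 8 groups. With all 48 libraries the NRG1 means were 0.109 ± 0.0691 CPM (SD) under AII + EGF and 0.0118 ± 0.0191 CPM in control at 6 h. NRG1 failed the filter and the difference was not tested. BTC had 11 counts in the 6 control libraries at 24 h (0.0757 CPM). For EREG, BTC and EPGN the intervals of all 8 groups overlapped, and differences between groups were not tested.

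**Figure D1:**
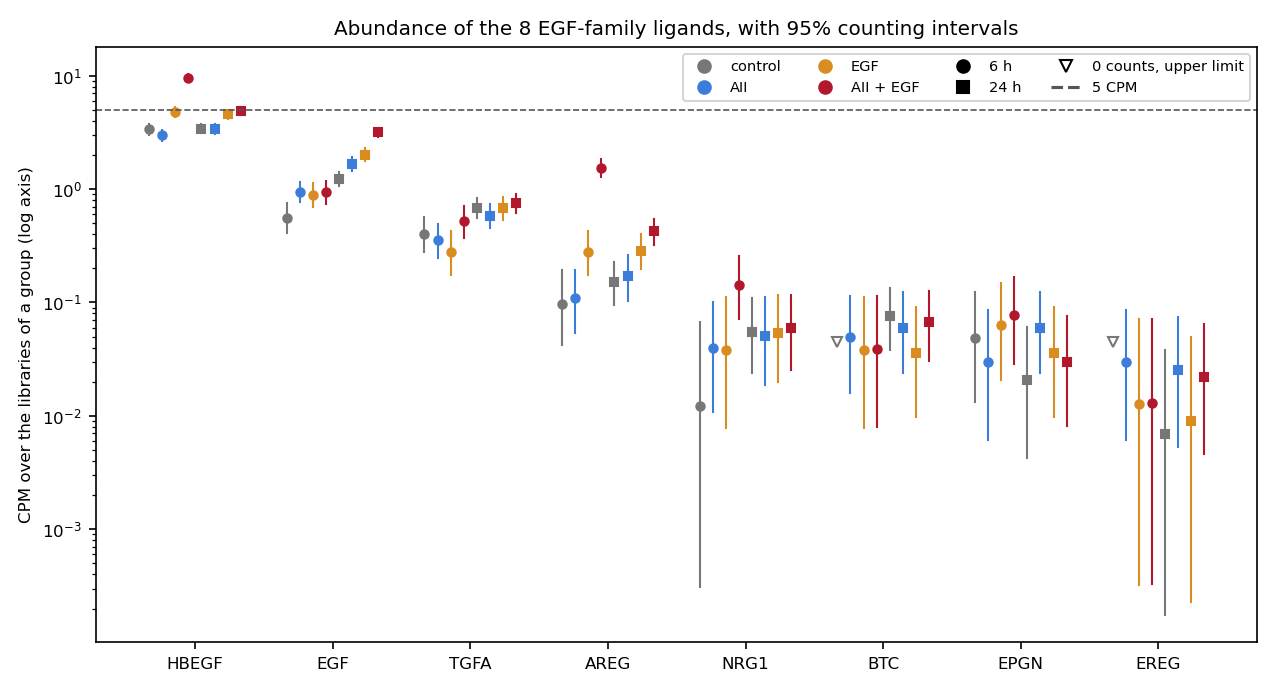
Pooled level of each of the 8 ligands in each of the 8 groups, in CPM on a log axis, with 95% exact Poisson intervals as bars; circles are 6 h, squares 24 h, open triangles the upper limit of groups with 0 counts, and the dashed line is 5 CPM. HBEGF under AII + EGF at 6 h is the only point above the line, and NRG1, BTC, EPGN and EREG lie near or below 0.1 CPM.

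HBEGF mRNA rose under AII + EGF at 6 h and in no other group passed all criteria of a call. The 4 control libraries at 6 h held 3.46, 3.28, 3.66 and 3.11 CPM, and the 5 AII libraries 2.89, 3.54, 2.80, 2.93 and 2.80 CPM. The 3 EGF libraries held 4.54, 4.71 and 5.0 CPM. The 4 AII + EGF libraries held 9.37, 10.1, 9.04 and 9.91 CPM, and every one of them lay above every other library at either time. At 6 h 17.4% of all genes lay higher in each AII + EGF than in each control library. The group means were 3.38 ± 0.234 (SD, n = 4) in control, 2.99 ± 0.313 (n = 5) under AII, 4.75 ± 0.235 (n = 3) under EGF and 9.61 ± 0.495 CPM (n = 4) under AII + EGF.

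A call required an adjusted p under 0.01 over all tested genes, 1.5-fold or more, and over 5 CPM on average in the higher group. Against control at 6 h, HBEGF was 2.85-fold higher under AII + EGF (log2 change 1.51 ± 0.13 (SE), adjusted p = 1.3e-11), and it was the only ligand called of the 4 tested, where 12% of all tested genes were called (6.45% as higher). With all 48 libraries the change was 1.19 on the log2 scale (adjusted p = 1.94e-06). AII + EGF exceeded EGF alone by 1.02 ± 0.14 (adjusted p = 3.01e-06, 1 of 4 ligands called, 2.92% of all genes) and AII alone by 1.68 ± 0.13 on the log2 scale (adjusted p = 4.17e-13, 1 of 4 ligands, 7.6% of all genes). With all 48 libraries the change against EGF alone was 0.78 (adjusted p = 0.0114) and no longer passed, while that against AII alone was 1.17 (adjusted p = 3.58e-04).

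Under the single stimuli HBEGF stayed below the threshold at 6 h. EGF alone gave a log2 change of 0.49 ± 0.14 (adjusted p = 0.0278), and its 3 libraries did not overlap with the 4 controls, as was so for 22.1% of all genes. AII alone gave -0.17 ± 0.13 (adjusted p = 0.659), with overlapping libraries, and the sign changed to 0.02 with all 48 libraries. No ligand was called under AII (0.469% of all genes were) or under EGF (1.94%). HBEGF could not have been called there, since its means stayed under 5 CPM. In edgeR, the ligands with an unadjusted p under 0.05 numbered 1 of 4 under AII (12.1% of all genes) and 3 under EGF (17.8%) at 6 h. At 24 h they numbered 2 under EGF (14.7%), 3 under AII + EGF (32.1%), 1 for AII + EGF against EGF (10.7%) and 3 for AII + EGF against AII (25.3%). DESeq2 called 0 ligands in each of these comparisons, but none could be called with either tool, since all ligand means stayed under 5 CPM. Under AII + EGF against control at 24 h, DESeq2 gave an adjusted p of 9.78e-05 for HBEGF and 2.41e-11 for EGF.

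The question of synergy asks whether the joint response exceeds the sum of the separate ones. On the log2 scale the interaction of AII and EGF for HBEGF at 6 h was 1.19 ± 0.19 (adjusted p = 6.1e-04), and HBEGF was the only ligand called, where 0.229% of all genes were called (0.0917% as higher). On the linear scale the level under AII + EGF exceeded the control level plus both separate effects by 5.25 ± 0.336 CPM (SE). With all 48 libraries the interaction was 0.76 ± 0.26 (adjusted p = 0.956) and the excess 3.26 ± 1.28 CPM, and keeping only the 2 libraries whose labels are in doubt gave 0.75 (adjusted p = 1). With only the near-identical pairs kept the interaction was 1.16 (adjusted p = 0.00505), so the call rests on leaving out the 2 libraries with doubtful labels. Without the filter on low counts the interaction was 1.18 (adjusted p = 0.0181) and did not pass.

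HBEGF had come down by 24 h. The 6 AII + EGF libraries at 24 h held 4.04, 5.14, 5.70, 4.19, 5.95 and 4.2 CPM (mean 4.87 ± 0.838), against 2.96 to 3.81 CPM in the 6 controls (median 3.43, mean 3.42 ± 0.28). They did not overlap, as was so for 4.73% of all genes, and the log2 change was 0.51 ± 0.11 (adjusted p = 7.79e-04, and 0.051 with all 48 libraries), short of both the fold and the abundance required. The 5 EGF libraries held 4.79, 4.34, 4.77, 3.92 and 4.87 CPM (0.41 ± 0.11 against control, adjusted p = 0.0472), and the 5 AII libraries 3.64, 2.70, 3.80, 3.12 and 3.62 CPM (-0.02 ± 0.12, adjusted p = 1). AII + EGF and EGF alone overlapped at 24 h (log2 change 0.10, 95% interval -0.12 to 0.32, adjusted p = 0.805). The response to AII + EGF was smaller at 24 h than at 6 h by a log2 difference of -1.0 ± 0.17 (adjusted p = 2.4e-05, the only ligand called, 11.6% of all genes), which was -0.68 with all 48 libraries (adjusted p = 0.0464). The interaction at 24 h was 0.12 ± 0.16 (adjusted p = 0.998), with 0 ligands and 0% of all genes called, and at an unadjusted p under 0.05 it had 0 ligands and 3.36% of all genes. The responses to AII and to EGF alone differed between the times for 0 ligands as well (0.138% and 1.03% of all genes were called), and for 0 ligands at an unadjusted p under 0.05 (8.02% and 15.3% of all genes). No ligand could have been called for these differences or for the interaction at 24 h, since all ligand means involved stayed under 5 CPM.

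Ordered by mean, HBEGF ran from AII at 6 h through AII at 24 h, control at 6 h and control at 24 h (2.99, 3.38, 3.38 and 3.42 CPM) to EGF at 24 h, EGF at 6 h and AII + EGF at 24 h (4.54, 4.75 and 4.87 CPM) and to AII + EGF at 6 h (9.61 CPM). Neighbours within the first 4 groups and within the next 3 overlapped. The control levels of both times overlapped (log2 change 0.02, 95% interval -0.22 to 0.26, adjusted p = 0.916).

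**Figure D2:**
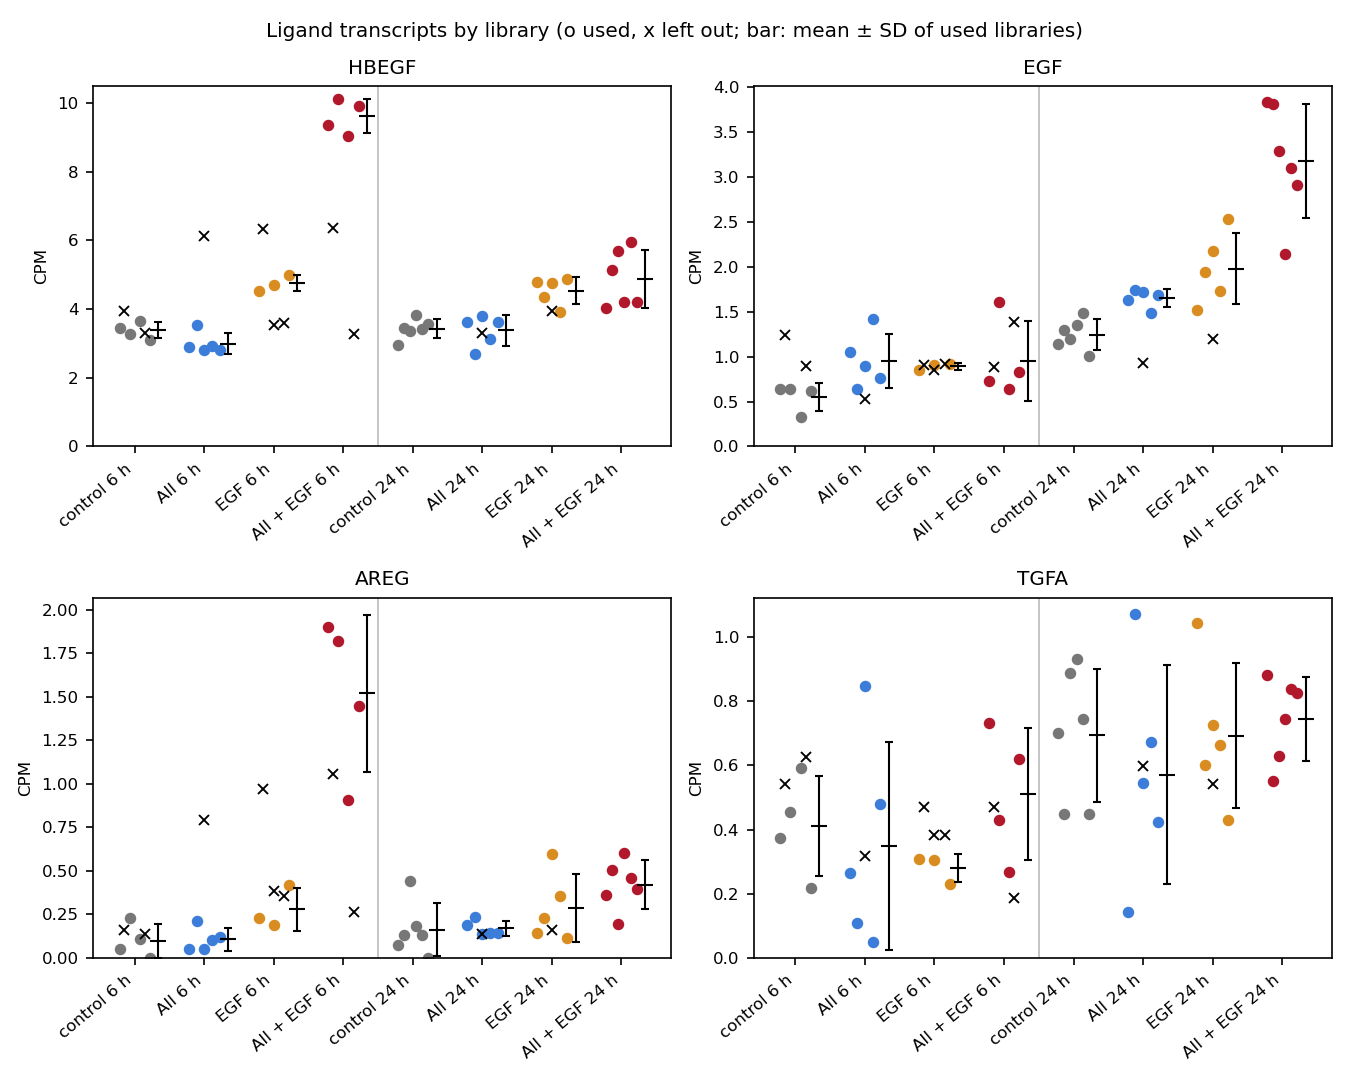
CPM of HBEGF, EGF, AREG and TGFA in each library by group; filled circles are the 38 libraries used, crosses the 10 left out, and the bars give mean ± SD of the libraries used. The AII + EGF libraries at 6 h stand apart for HBEGF (9.04 to 10.1 CPM) and AREG (0.909 to 1.90 CPM), the AII + EGF group at 24 h has the highest mean of EGF (3.18 CPM), and some crosses lie away from the group they are labelled with.

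AREG mRNA, almost absent from control cells, was also highest under AII + EGF at 6 h. The 4 control libraries at 6 h held 1, 5, 2 and 0 counts and the 5 AII libraries 1, 4, 1, 2 and 3 counts. The 3 EGF libraries held 6, 5 and 11 counts. The 4 AII + EGF libraries held 39, 34, 17 and 28 counts, which is 1.90, 1.82, 0.909 and 1.45 CPM and more than in any other of the libraries used, at either time. At 6 h 17.4% of all genes lay higher in each AII + EGF than in each control library. The share was 13.9% against the EGF libraries and 14.5% against the AII libraries. The group means were 0.0972 ± 0.0976 (SD, n = 4), 0.108 ± 0.0665 (n = 5), 0.280 ± 0.123 (n = 3) and 1.52 ± 0.453 CPM (n = 4) for control, AII, EGF and AII + EGF. AREG reached 10 counts in 11 of 38 libraries, among them all 4 of the group where it was highest. It also did so in AII + EGF 24 h replicates 2 and 4 (11 and 13 counts) and EGF 24 h replicate 4 (14 counts). Its place among the tested genes therefore did not rest on the group where it was highest alone.

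Against control at 6 h the log2 change of AREG under AII + EGF was 3.89 ± 0.56 (adjusted p = 7.4e-07). Leaving out 1 library moved it from 3.45 to 4.78, the highest value without control 6 h replicate 4, which held 5 of the 8 control counts. AREG passed the adjusted p and the fold but not 5 CPM, and without the abundance criterion 2 of 4 ligands rose (HBEGF and AREG), where 8.33% of all genes did. AII + EGF exceeded AII alone by 3.74 ± 0.51 (adjusted p = 4.15e-07) and EGF alone by 2.42 ± 0.51 (adjusted p = 0.00111). Against EGF alone the adjusted p rose to 0.0142 without EGF 6 h replicate 3, to 0.0178 without EGF 6 h replicate 4 and to 0.0492 with all 48 libraries (log2 change 1.48). EGF alone gave 1.47 ± 0.70 against control (adjusted p = 0.257), which was 1.82 and passed with the near-identical pairs kept (adjusted p = 0.00471). The kept libraries include EGF 6 h replicate 1 (33 AREG counts), which was near-identical to AII + EGF 6 h replicate 4 (36 counts). EGF 6 h replicates 2 and 6 were near-identical to each other, so the libraries behind that pass are in doubt. With 1 library left out the change under EGF alone ran from 1.015 (without control 6 h replicate 6) to 2.36 (without control 6 h replicate 4). AII alone gave 0.15 ± 0.77 (adjusted p = 0.965). The interaction at 6 h was 2.27 ± 0.98 and did not pass (adjusted p = 0.398), and was 1.39 without control 6 h replicate 4. The linear excess of AREG was 1.23 ± 0.244 CPM with the 38 libraries and 0.687 ± 0.299 CPM with all 48.

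At 24 h AREG was low throughout. The AII + EGF libraries held 4 to 13 counts (0.193 to 0.606 CPM, median 0.428, mean 0.420 ± 0.14, n = 6) and the controls 0 to 10 counts (0 to 0.443 CPM, median 0.133, mean 0.161 ± 0.152, n = 6). The groups overlapped through control 24 h replicate 3, the control library with 10 counts. The log2 change was 1.42 ± 0.46 (adjusted p = 0.0269), and without that library 2.03 (adjusted p = 0.00238). AREG under EGF alone (0.289 ± 0.196 CPM, n = 5) and under AII alone (0.170 ± 0.0441 CPM, n = 5) overlapped with control as well. The AREG response to AII + EGF was lower at 24 h than at 6 h by a log2 difference of -2.47 ± 0.79, which missed the threshold (adjusted p = 0.0177). Single control libraries decided this, since the difference was -3.36 (adjusted p = 0.00598) without control 6 h replicate 4, -2.74 (adjusted p = 0.00427) without control 24 h replicate 6 and -1.86 without control 24 h replicate 3.

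EGF mRNA had another course, with its highest level under AII + EGF at 24 h and not at 6 h. At 6 h the control libraries held 0.638, 0.638, 0.323 and 0.614 CPM (mean 0.553 ± 0.154, n = 4). AII libraries held 0.644 to 1.41 CPM (mean 0.954 ± 0.299, n = 5), EGF libraries 0.846, 0.911 and 0.916 CPM (mean 0.891 ± 0.0392, n = 3) and AII + EGF libraries 0.732, 1.61, 0.642 and 0.826 CPM (mean 0.952 ± 0.443, n = 4). All stimulated libraries lay above the controls, some by a margin of under 1 count. Of all genes, 4.88% lay above the controls in every AII library, 13.2% in every EGF library and 17.4% in every AII + EGF library. None of the 3 stimuli passed the test at 6 h (adjusted p = 0.151 for AII, 0.196 for EGF and 0.032 for AII + EGF). The 2 libraries labelled control 6 h and left out as near-identical, at 1.25 and 0.897 CPM, overlapped with the stimulated ones. They were near-identical to EGF 24 h replicate 2 and AII 24 h replicate 4, so whether they show the control level at 6 h is in doubt.

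At 24 h the 6 control libraries held 1.15, 1.30, 1.20, 1.35, 1.49 and 1.00 CPM of EGF mRNA. The AII libraries held 1.63, 1.74, 1.72, 1.49 and 1.69 CPM and the EGF libraries 1.52, 1.94, 2.17, 1.73 and 2.53 CPM. The AII + EGF libraries held 3.84, 3.81, 3.29, 2.14, 3.10 and 2.91 CPM. All 6 lay above every control library (as did 2.62% of all genes) and every AII library (2.56%), and AII + EGF 24 h replicate 4, at 2.14 CPM, fell within the range of EGF alone. The means were 1.25 ± 0.169 (n = 6), 1.65 ± 0.103 (n = 5), 1.98 ± 0.393 (n = 5) and 3.18 ± 0.632 CPM (n = 6).

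EGF mRNA was 2.55-fold higher under AII + EGF than in control at 24 h (log2 change 1.35 ± 0.19, adjusted p = 2.08e-06), and 1.35 with all 48 libraries (adjusted p = 3.6e-05). No ligand was called there, where 2.9% of all genes were. None could be called there or in the other comparisons within 24 h, since all ligand means at 24 h stayed under 5 CPM. Without the abundance criterion 1 of 4 ligands passed (3.14% of all genes as higher). AII + EGF exceeded AII alone by 0.94 ± 0.19 (adjusted p = 0.00115, 0 ligands called and 1.45% of all genes) and EGF alone by 0.68 ± 0.19, which did not pass (adjusted p = 0.0948, 0 ligands called and 0.0917% of all genes). EGF alone gave 0.68 ± 0.20 (adjusted p = 0.0627, 0 ligands called, 0.245% of all genes) and AII alone 0.41 ± 0.20 (adjusted p = 1, 0 ligands called, 0% of all genes). At an unadjusted p under 0.05, EGF was the only 1 of the 4 ligands under AII at 24 h (1.75% of all genes). The interaction was 0.26 ± 0.28 on the log2 scale (adjusted p = 0.998). On the linear scale the joint level exceeded the sum of the separate effects by 0.795 ± 0.323 CPM.

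Without any stimulus EGF mRNA was higher at 24 h than at 6 h by 1.15 ± 0.25 on the log2 scale (adjusted p = 5.53e-04). Each stretch of consecutive library titles held only 1 of the times, so time cannot be told apart from a difference between these stretches. No ligand was called (6.73% of all genes were), and none could be, since all ligand means in control stayed under 5 CPM. The adjusted p and the fold were passed by 1 of 4 (9.66% of all genes as higher, and 1 of 4 at an unadjusted p under 0.05, as 43.7% of all genes). With all 48 libraries the change was 0.74 and did not pass (adjusted p = 0.0261). That fit includes control 6 h replicates 1 and 2, each near-identical to a library labelled 24 h. COL1A1, a collagen gene of mesenchymal cells and the only 1 of the 8 markers of other cell types that was tested, rose in the same comparison by 1.04 ± 0.20 (adjusted p = 1.08e-04). The sum of the 8 markers ran from 12.3 to 14.5 CPM in control at 6 h, 11.2 to 16 CPM in the stimulated groups at 6 h, 14 to 40.5 CPM in control at 24 h, and 22 to 45.2 CPM under AII, 23.5 to 41.7 CPM under EGF and 31.4 to 38.7 CPM under AII + EGF at 24 h. Nearly all of it was COL1A1, and UMOD was at 0. Its part in the change of EGF mRNA was not tested.

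By mean, EGF mRNA ran from control at 6 h (0.553 CPM) through EGF, AII + EGF and AII at 6 h (0.891, 0.952 and 0.954 CPM), which overlapped, to control, AII, EGF and AII + EGF at 24 h (1.25, 1.65, 1.98 and 3.18 CPM). AII and EGF at 24 h overlapped, EGF and AII + EGF at 24 h overlapped, and control and AII at 24 h were separated by less than 1 count. RefSeq lists a U6 pseudogene that overlaps the span of EGF. Whether it overlaps an exon of EGF was not examined, and the strand setting of the counting is not known, so any share of it in the counts is unknown.

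**Figure D3:**
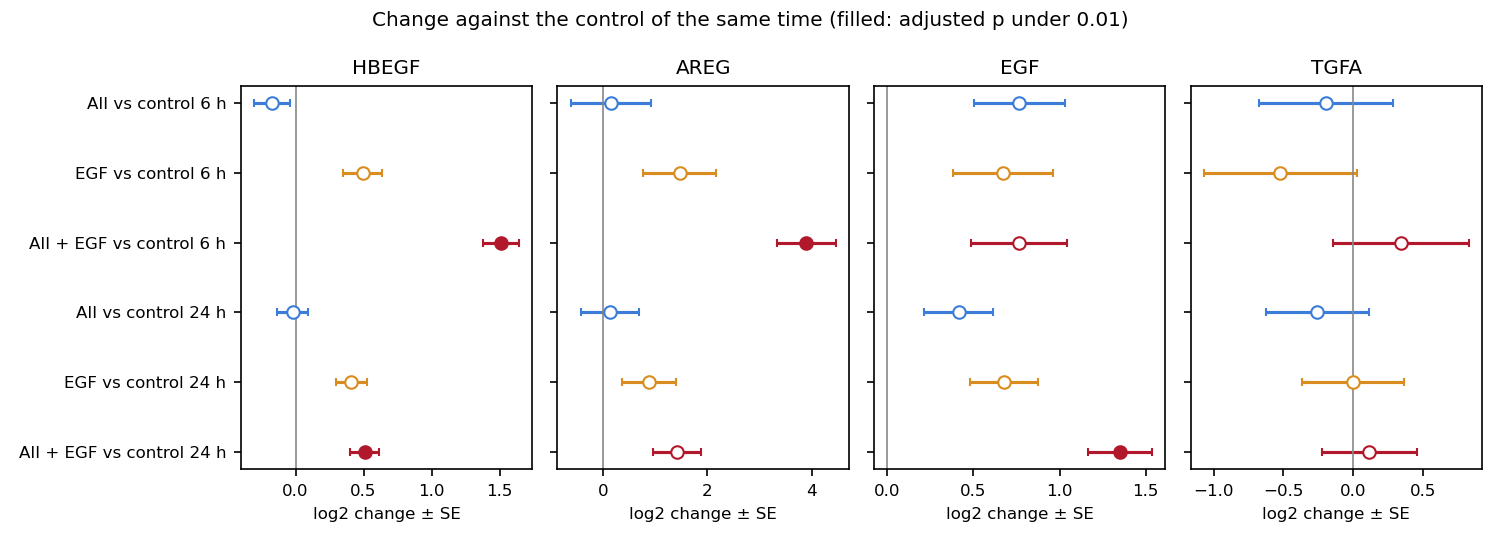
Log2 change ± SE of HBEGF, AREG, EGF and TGFA against the control of the same time under AII, EGF and AII + EGF, with filled points where the adjusted p was under 0.01; the log2 axes differ between panels. HBEGF and AREG change most under AII + EGF at 6 h (1.51 and 3.89), EGF under AII + EGF at 24 h (1.35), and no TGFA point is filled.

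TGFA passed no comparison. At 6 h its libraries held 0.219 to 0.592 CPM in control (median 0.414, n = 4), 0.0505 to 0.846 CPM under AII (median 0.263, n = 5), 0.229 to 0.308 CPM under EGF (median 0.304, n = 3) and 0.268 to 0.732 CPM under AII + EGF (median 0.524, n = 4). At 24 h they held 0.447 to 0.930 CPM in control (median 0.723, n = 6), 0.144 to 1.07 CPM under AII (median 0.543, n = 5), 0.428 to 1.04 CPM under EGF (median 0.662, n = 5) and 0.551 to 0.882 CPM under AII + EGF (median 0.786, n = 6). All groups overlapped within a time. The log2 change under AII + EGF was 0.34 at 6 h (95% interval -0.61 to 1.29, adjusted p = 0.635) and 0.12 at 24 h (-0.56 to 0.79, adjusted p = 0.856). At 1 to 27 counts per library, rises and falls within these intervals are therefore not excluded. RefSeq lists 3 long non-coding RNAs that overlap the span of TGFA. Whether they overlap its exons was not examined, so any share of them in its counts is unknown.

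**Figure D4:**
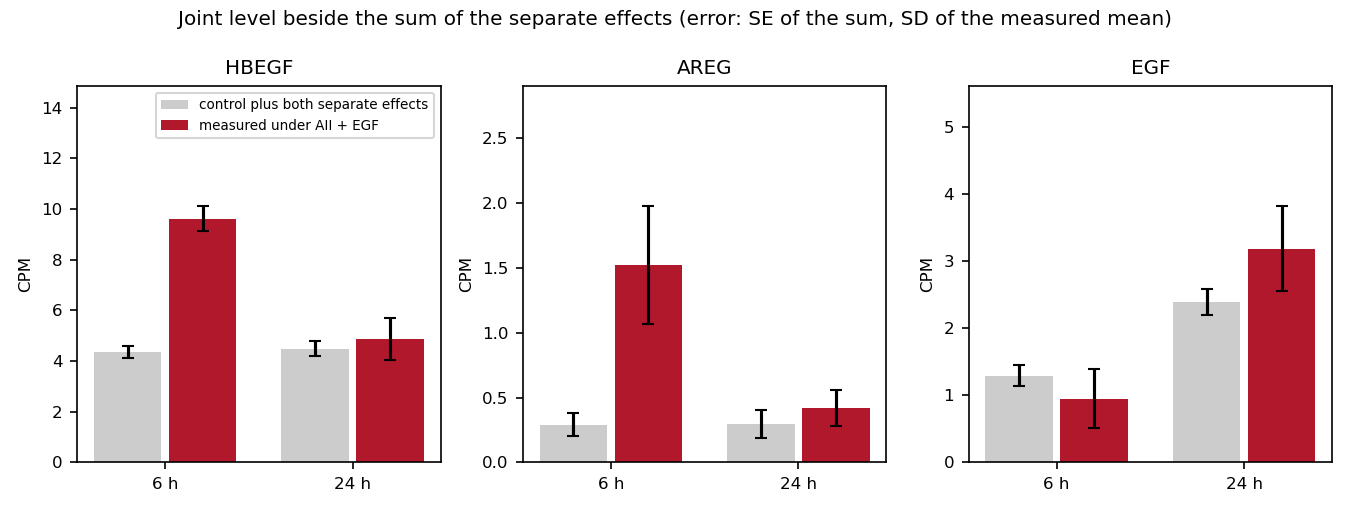
Level measured under AII + EGF (red, mean with SD) beside the control level plus both separate effects (grey, with the SE of the sum) for HBEGF, AREG and EGF at 6 h and 24 h, in CPM on linear axes from 0. At 6 h the red bars of HBEGF (9.61 CPM) and AREG (1.52 CPM) exceed the grey ones by 5.25 and 1.23 CPM, while for EGF the red bar is higher only at 24 h.

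The genes whose 8 group means followed a ligand most closely were found by Pearson correlation of log2 CPM over 12416 or 12417 tested genes with a mean of at least 5 CPM in some group. For HBEGF they were NFIL3 (r = 0.983), LRRFIP1 (0.9807) and CCDC181 (0.9805). NFIL3, a transcription factor, rose from 18 CPM (control) to 35.9 CPM (AII + EGF) at 6 h and lay at 24.5 CPM under AII + EGF at 24 h. For AREG they were KCNK1 (0.9927), a potassium channel, LRRFIP1 (0.9895) and the non-coding LINC00659 (0.9893), at 0.136 CPM without stimulus and 6.13 CPM with AII + EGF for 6 h. For EGF they were PREX1 (0.9947), TTC7A (0.9883) and A4GALT (0.9875). PREX1, an exchange factor for RAC, had 7.59 CPM in unstimulated cells at 6 h, 11.4 CPM in those at 24 h and 19.1 CPM with AII + EGF at 24 h. For TGFA they were RSRC2 (0.9574), FSTL3 (0.9358) and GSDMB (0.9354). These are descriptions over 8 points that share libraries and depth, and with the 38 libraries as points 1 of the 3 genes remained for AREG (KCNK1) and 0 of 3 for the other ligands.

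Of the receptors, EGFR mRNA was also highest under AII + EGF at 6 h. Its interaction at 6 h was 0.07 ± 0.18 on the log2 scale (adjusted p = 0.956), against 1.19 for HBEGF. AII alone gave EGFR a log2 change of 0.47 ± 0.12 (adjusted p = 0.0327), against -0.17 for HBEGF. EGFR had 19.2 ± 2.86 CPM in control, 26.5 ± 2.75 under AII, 32.3 ± 3.01 under EGF and 46.9 ± 2.45 CPM under AII + EGF (SD, n = 4, 5, 3 and 4), a log2 change of 1.29 ± 0.13 for AII + EGF (adjusted p = 3.49e-10) and 0.75 ± 0.14 for EGF (adjusted p = 2.53e-04). ERBB2 (70.4 to 116 CPM over all libraries) and ERBB4 (7.44 to 22.6 CPM) were present and not called against control under any stimulus. ERBB3, the receptor of the neuregulins that lacks kinase activity of note, was called under AII + EGF at 24 h, with 6.27 ± 0.456 CPM against 2.77 ± 0.621 CPM in control (log2 change 1.18 ± 0.16, adjusted p = 1.6e-06), while at 6 h it gave -0.60 ± 0.25 (adjusted p = 0.0614). Of the 10 receptors and inhibitors, 3 were called higher under AII + EGF at 6 h (EGFR, the ubiquitin ligase CBL with 0.99 ± 0.16, and ERRFI1, an inhibitor of EGFR, with 0.77 ± 0.12), 2 under AII + EGF at 24 h (ERBB3 and ERRFI1), 1 under EGF at 6 h and 0 lower. Of all genes, 6.45%, 1.7% and 1.62% were called higher in these comparisons. Their median log2 change under AII + EGF at 6 h was -0.05, against -0.03 over all genes tested.

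Of 14 genes that act in the release of the ligands, 13 could be tested (ADAM12 could not). Under AII + EGF at 6 h 1 was called, CD9, a tetraspanin that binds the HBEGF precursor, with a log2 change of 0.89 ± 0.13 (adjusted p = 9.83e-07), and no gene of the list was called against control in the other 5 comparisons. This count of 1 of 13 stands beside 12% of all genes called (6.45% as higher). ADAM17, the main sheddase of HBEGF, AREG and TGFA, was present at 28.1 to 48.5 CPM and changed by 0.22 ± 0.11 (adjusted p = 0.128) under AII + EGF at 6 h. ADAM10, the main sheddase of EGF and BTC, was present at 60.6 to 113 CPM and changed by 0.04 ± 0.11 (adjusted p = 0.799). The median log2 change of the 13 genes was -0.13, against -0.03 over all genes tested.

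**Figure D5:**
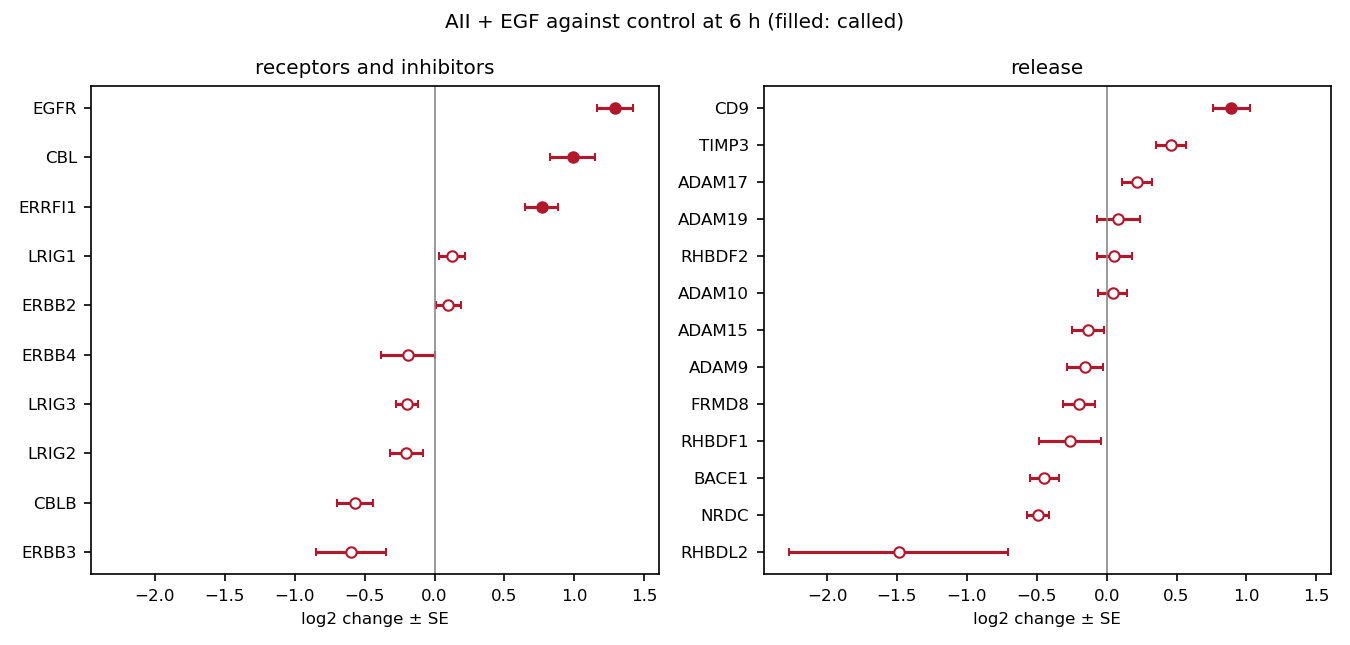
Log2 change ± SE under AII + EGF against control at 6 h for receptors and inhibitors (left) and for genes of ligand release (right), with filled points for called genes. EGFR (1.29), CBL, ERRFI1 and CD9 are filled, and ADAM10 and ADAM17 lie near 0.

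Of the other neuregulins, NRG2 (2.54 to 6.32 CPM) and NRG4 were tested and not called in any comparison, and NRG3 had 6 counts in 38 libraries. The group means of NRG2 ran from 2.96 CPM in control at 6 h to 5.16 CPM under AII at 24 h. Of 13 genes known to follow ERK activity, 2 were called higher under AII, 10 under EGF and 10 under the combination at 6 h, and 0, 4 and 6 at 24 h. Of all genes, 0.459%, 1.62% and 6.45% were called higher at 6 h, and 0%, 0.163% and 1.7% at 24 h. At 6 h their median log2 change came to 1.44 for EGF and 2.32 for AII + EGF, where ETV4 (7.75 ± 0.73), ETV5 (6.49 ± 0.53), EGR1 (5.22 ± 0.35) and IER3 (2.42 ± 0.26) had the largest changes of the called genes. SPRY4 (6.31 ± 0.77) and DUSP6 (2.65 ± 0.32), inhibitors of ERK signalling, changed more than some of these and were not called, since they stayed under 5 CPM. They are named after their values were seen. For comparison, the change of HBEGF was 0.49 and 1.51 and that of AREG 1.47 and 3.89 in the same contrasts. Of 5 secreted proteases and their receptor genes, 3 were tested and 2 called under AII + EGF at 6 h, MMP10 (6.36 ± 0.45) and PLAUR (0.95 ± 0.19), and 1 at 24 h, PLAU (1.15 ± 0.19), where 12% and 2.9% of all genes were called.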

How the data were processed

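The authors mapped reads of poly(A) RNA from 48 libraries to hg38 with HISAT2 2.1.0, counted them per gene with featureCounts, and deposited the raw counts as 1 table. Neither the strand setting nor the handling of multi-mapped reads is stated. Groups were read from the labels. Replicate numbers follow the order of deposition and pair nothing. The members, lists and tests were chosen with earlier results of these data known.

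The tests used edgeR 4.0.16 (R 4.3.3) on the counts of 38 libraries (filterByExpr by group with a minimum of 10 counts, 0.461 CPM in the median library, TMM factors, 1 quasi-likelihood fit over 8 groups without covariates, Benjamini-Hochberg adjustment over 19626 genes). A call required an adjusted p under 0.01, at least 1.5-fold and over 5 CPM on average in the higher group, or in the highest group of an interaction or of a difference between times. The linear excess is the AII + EGF mean plus the control mean minus the AII and the EGF means. Depth was 17.8 to 30 M counts per library, and intervals of levels are exact Poisson, those of log2 changes normal.

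All 8 ligands were named. From the other lists the called genes with the largest changes (at most 4), the 4 ERBB receptors, ADAM10 and ADAM17 were named, and for each tested ligand the 3 genes of most like pattern. Exon lengths are of all exons of a GENCODE gene joined, positions and promoter sequences of RefSeq (GRCh38.p14). On simulated data with 200 genes changed 2-fold among 19626 (EGF against control at 6 h), edgeR recovered 185 (92.5%) with 0 false calls. The changed genes were drawn from those with a mean above 5 CPM. All 8 ligands had pooled levels below that, so this share does not give the power for them. Alternatives were DESeq2 1.42.0, RLE factors, no filter, other thresholds, other sets of libraries, title runs as a block, only the groups compared, and leaving out each library.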

Additional observations from a re-analysis of the deposited data

Results flagged for a closer look

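Over the 4 tested ligands in each of the 7 groups of 4 or more libraries (28 sets of values), 2 sets held a library that stood apart from the others, where chance gives about 1 in 20. These were HBEGF in AII 6 h replicate 2 (3.54 CPM, above the 2.80 to 2.93 CPM of the other 4 libraries) and EGF mRNA in control 6 h replicate 5 (0.323 CPM from 6 counts, below the 0.614 to 0.638 CPM of the other 3). Leaving them out changed no call.

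The effects of the 2 stimuli on HBEGF at 6 h did not add on the log2 scale (interaction 1.19), and its response to AII + EGF differed between the times by -1.0 on the log2 scale.

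Outside the libraries used, the library labelled AII 6 h replicate 6 held 6.13 CPM of HBEGF (116 counts) and 0.793 CPM of AREG (15 counts). Both values exceeded those of every control library used, and the other AII 6 h libraries held at most 3.54 CPM of HBEGF and 0.215 CPM of AREG. The library labelled AII + EGF 6 h replicate 6 held 3.27 CPM of HBEGF and 0.263 CPM of AREG, below the 4 other libraries of its group that were used.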

How the results depend on the processing

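The rise of HBEGF under AII + EGF at 6 h was called against control and against AII alone under all alternatives. The number of ligands called became 0 for AII + EGF against EGF at 6 h, for the interaction at 6 h and for the AII + EGF response at 24 h minus 6 h with all 48 libraries, and also with 40 libraries in which the doubtful labels were kept, and 0 for the interaction at 6 h without the low-count filter. Without the abundance minimum it became 2 for AII + EGF at 6 h against control, EGF and AII, and 1 for AII + EGF at 24 h against control and against AII and for control at 24 h against 6 h. Without title runs 7 and 8 it became 1 for AII + EGF against AII at 24 h. The cause was not tested, beyond the criterion or libraries removed. Leaving out 1 library at a time changed no number of ligands called. The HBEGF change under AII at 6 h reversed to 0.02 with all 48 libraries and to 0.06 with 40. Under AII at 24 h it ran from -0.068 to 0.052 when 1 library was left out, with both signs. Under alternatives other than leaving out 1 library, 7 log2 changes fell short of the threshold on the adjusted p in 19 fits, and 2 passed it, AREG under EGF at 6 h with the near-identical pairs kept and AREG under AII + EGF at 24 h with title runs as a block (adjusted p = 0.00495). The block moved no other recomputed log2 change across that threshold.

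No paired analysis was possible by replicate number because the labels carry none, and the block of title runs is the only blocked fit. The limits are the 2 libraries with doubtful labels, on which the HBEGF interaction rests, the 3 EGF libraries at 6 h, and the low counts of AREG, TGFA and the 4 ligands not tested.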
